A study of Capra hircus with 6 samples.

Results

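TP63 and 4 genes of the keratinocyte, KRT14, SFN, PERP and DSG3, were followed in fetal goat skin. Their 8 transcripts were taken by RefSeq accession from the 27947 mRNA transcripts measured, with 4 transcripts belonging to TP63 and 1 to each of the other genes. Skin came from goat fetuses at day 100 of gestation, 3 of the Youzhou dark-skin goat (dark skin, replicates 1, 2 and 3) and 3 of the Yudong white goat (called white skin here, with replicate numbers 4, 5 and 6), and 1 library of rRNA-depleted total RNA was made for each. No treatment or allele is named for either breed. The methods of the study call the dark breed the Youzhou dark goat. They describe its skin as dark, the mucous membranes that can be seen included, while its coat is mostly white. Fetuses were delivered by caesarean section from 3 ewes per breed, and each gave both dorsal and ventral skin. The labels do not say which site entered which library, so that breed and site cannot be told apart from these libraries.

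Values are FPKM, the number of sequenced fragments scaled by transcript length and by library depth, calculated by the authors with Cuffdiff for each transcript, so levels of different transcripts may be compared. The table holds no read counts, and the depth behind a value is unknown. The summed FPKM of a library ranged from 506548 to 585344, and between 3024 and 3425 transcripts were listed at 0. A listed 0 can be a failed estimate: COL1A2 and COL3A1, collagen genes that define dermal fibroblasts, were listed at 0 in all 6 libraries.

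p63, the protein of TP63, is a transcription factor on which stratified epithelia depend. Alternative promoters give forms with or without the transactivation domain, and alternative splicing gives several C-terminal ends. The shorter N-terminal form is the main one of the basal layer of the epidermis, where dividing keratinocytes sit on the basement membrane before they move up and differentiate. KRT14 is the type I keratin of that layer, SFN (stratifin, 14-3-3 sigma) is a cell cycle and differentiation regulator of epithelia, PERP is a membrane protein of desmosomes known as a p63 target, and DSG3 is a desmosomal cadherin of the lower layers. Which p63 form each goat transcript encodes is not given in the sources used here.

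The epidermal genes were abundant in every library. KRT14 had a mean of 326 FPKM over the 6 libraries, above 99.2% of the 23090 transcripts tested, and PERP had a mean of 319 FPKM. The levels of these 2 genes lay within each other's spread. SFN followed at 69.7 FPKM. Summed TP63 (28.1 FPKM) and DSG3 (24.9 FPKM) stood close together at the lower end, and their values interleaved between libraries. KRT5, the usual partner of KRT14, was not analysed here because no transcript carried its symbol.

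Of the 4 TP63 transcripts, 2 held nearly all of their summed FPKM. XM_005675130.1 was listed at 19.8, 22.7 and 17.3 FPKM in dark skin replicates 1, 2 and 3, and at 11.8, 14.6 and 17.9 FPKM in white skin replicates 4, 5 and 6. White skin replicate 6 lay above dark skin replicate 3, so the breeds overlapped. XM_005675126.1 was listed at 12.3, 13.3 and 13.6 FPKM in dark skin and at 8.30, 9.57 and 7.33 FPKM in white skin, in the same order. All 3 dark skin values of this transcript were above all 3 white skin values. XM_005675125.1 was listed at 0.147 FPKM in white skin replicate 5 and at 0 in the other libraries. XM_005675129.1 was listed at 0 in all 6 libraries. These last transcripts fell under the minimum mean of 0.1 FPKM, so 6 of the 8 transcripts were tested.

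**Figure D1:**
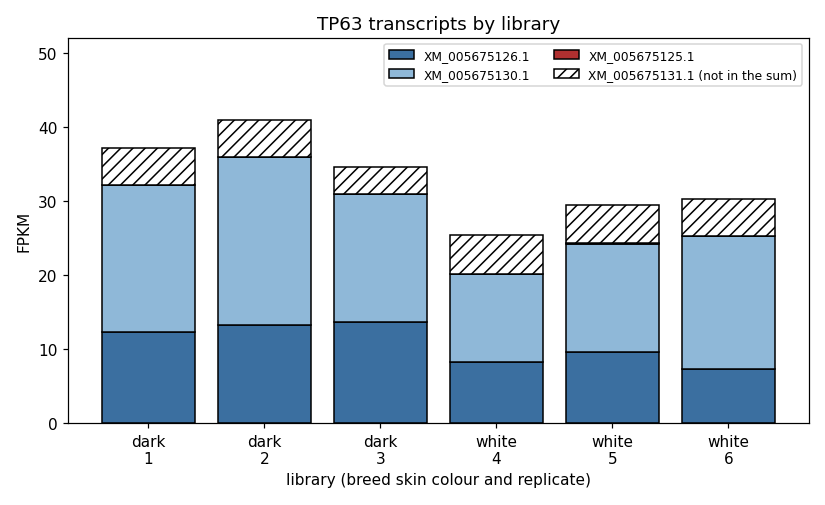
FPKM of the TP63 transcripts in each library, stacked, with the 3 dark skin libraries on the left and the 3 white skin libraries on the right. The filled parts add up to between 31.0 and 35.9 FPKM in dark skin and between 20.1 and 25.3 FPKM in white skin. The hatched part is XM_005675131.1, another TP63 transcript that is not in the sum. It is lower in dark skin, narrowly except in replicate 3.

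The mix of the main TP63 transcripts varied among fetuses more than between breeds. In dark skin, XM_005675130.1 made up 61.7%, 63.1% and 56.0% of the summed TP63 FPKM of replicates 1, 2 and 3. In white skin it made up 58.7%, 60.1% and 71.0% for replicates 4, 5 and 6. The mean share was 60.3% ± 3.78 (SD, n = 3) in the dark breed against 63.2% ± 6.73 (SD, n = 3) in the white breed, a difference of -2.96 percentage points (exact permutation test, 2-sided, p = 0.700). The r between these transcripts over the 6 libraries was 0.62, or -0.38 after removal of the breed means. The ratio of XM_005675130.1 to XM_005675126.1 ran from 1.27 in dark skin replicate 3 to 2.44 in white skin replicate 6. White skin replicate 6 stood apart from the other white skin libraries, and without it the share of XM_005675130.1 was 0.905 percentage points higher in dark skin. Cuffdiff divides reads that transcripts share, so these shares are estimates whose errors are linked. No design of 3 against 3 libraries can give an exact p below 0.1.

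Another TP63 transcript, XM_005675131.1, the fifth, was found by symbol among the transcripts, was not part of the 8, and is shown because a sum over TP63 depends on it. Its level was 5.01, 5.02 and 3.56 FPKM in dark skin and 5.33, 5.11 and 5.05 FPKM in white skin. It was lower in dark skin without overlap (as were 7.06% of all transcripts tested), the opposite of XM_005675126.1. The gap was narrow (5.02 against 5.05 FPKM), and only dark skin replicate 3 was well below the other libraries. The log2 values differed by -0.20 (standard error 0.17, limma adjusted p = 0.767). Added to the other transcripts, it made up 13.5%, 12.3% and 10.3% of TP63 in dark skin, below the 21.0%, 17.4% and 16.7% of white skin, a mean difference of -6.32 percentage points (exact permutation test, 2-sided, p = 0.1, the smallest p possible). That share also depends on the other TP63 transcripts, whose sum was higher in dark skin. With the fifth transcript in the sum the share of XM_005675130.1 was 1.29 percentage points higher in dark skin. Transcripts of TP63 that carry no symbol would be missing from all of these sums.

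Summed TP63 was higher in dark skin. The sum of the 4 transcripts was 32.2, 35.9 and 31.0 FPKM in dark skin replicates 1, 2 and 3, and 20.1, 24.3 and 25.3 FPKM in white skin replicates 4, 5 and 6. Every dark skin library was above every white skin library, and the means of 33.0 ± 2.60 (SD, n = 3) and 23.2 ± 2.76 FPKM (SD, n = 3) differed by a factor of 1.42. On the scale of log2(FPKM + 0.1), which understates changes of low values, the difference was 0.51 (exact permutation test, 2-sided, p = 0.1, the smallest p possible). With the fifth transcript in the sum it was 0.40. In bulk skin, more keratinocytes and more TP63 RNA per keratinocyte cannot be told apart.

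Single transcripts were compared with limma on the log2(FPKM + 0.1) scale, with p-values adjusted over all 23090 transcripts tested. Of the 6 transcripts tested, 0 had an adjusted p under 0.05, which 2 transcripts (0.00866%) had in the whole table. At an unadjusted p under 0.05 the count was 2 of 6, against 8.28% of the whole table, and both were TP63 transcripts that were higher in dark skin (4.48% of the whole table). XM_005675126.1 differed by 0.64 (standard error 0.13, unadjusted p = 0.00177, adjusted p = 0.405 from limma). XM_005675130.1 differed by 0.44 (standard error 0.18, unadjusted p = 0.0428, adjusted p = 0.601 from limma). Leaving out white skin replicate 4 gave 0.29, and leaving out replicate 6 gave 0.59. XM_005675126.1 was the only transcript of the 6 whose values did not overlap between breeds, as in 14.7% of all transcripts tested (7.65% with dark skin higher).

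The epidermal genes showed no such order by breed. KRT14 was listed at 199.8, 257 and 462 FPKM in dark skin replicates 1, 2 and 3, and at 330, 393 and 315 FPKM in white skin replicates 4, 5 and 6. Dark skin held both the lowest values and the highest, and all white skin values lay between them. The log2 difference was -0.26 (standard error 0.30, adjusted p = 0.827 from limma), and 0.0026 without dark skin replicate 1.

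SFN was listed at 43.2, 55.7 and 124 FPKM in dark skin and at 84.1, 72.1 and 39.7 FPKM in white skin, in replicate order. It had the widest range among the genes followed, with a highest value 3.12 times the lowest. Dark skin replicate 3 was highest and white skin replicate 6 lowest. The log2 values differed by 0.10 (standard error 0.44, limma adjusted p = 0.959), which turned to -0.34 without dark skin replicate 3 and to -0.22 without white skin replicate 6.

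PERP was listed at 279, 271 and 437 FPKM in dark skin and at 297, 376 and 256 FPKM in white skin. Its values overlapped between breeds, with dark skin replicate 3 again highest and white skin replicate 6 again lowest. The log2 difference was 0.07 (standard error 0.23, adjusted p = 0.949 from limma). It was -0.15 without dark skin replicate 3 and -0.06 without white skin replicate 6.

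DSG3 was listed at 28.4, 27.3 and 24.7 FPKM in dark skin and at 15.7, 23.9 and 29.2 FPKM in white skin. White skin replicate 4 was low and white skin replicate 6 was the highest of all, so the spread lay within white skin. The log2 difference was 0.27 (standard error 0.22, adjusted p = 0.760 from limma), and 0.02 without white skin replicate 4.

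**Figure D2:**
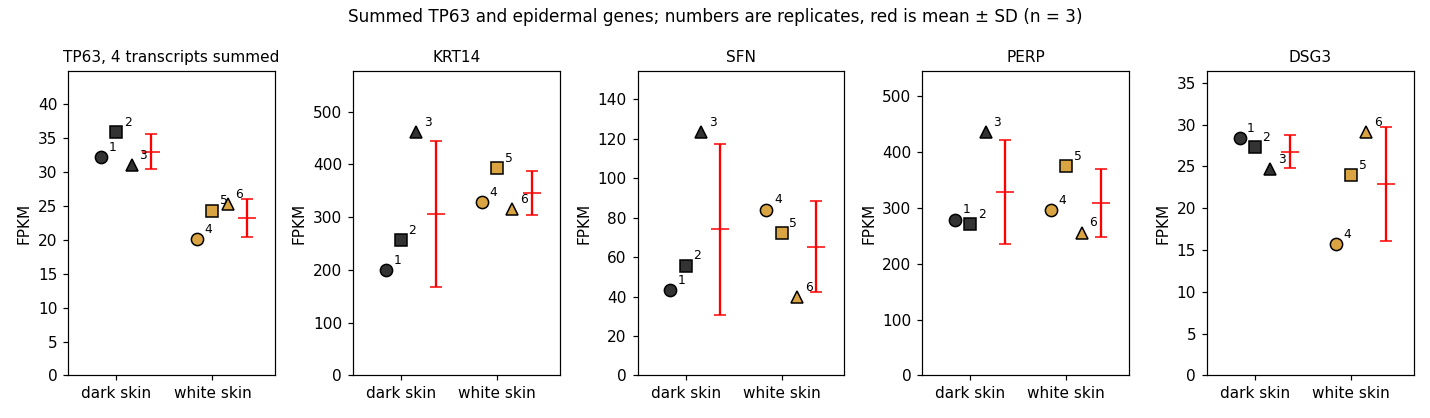
FPKM of summed TP63 and of KRT14, SFN, PERP and DSG3 in each library, as points marked by replicate number, with the mean and SD of each breed (n = 3) in red. The breeds are apart for TP63 (31.0 to 35.9 against 20.1 to 25.3 FPKM) and overlap for the other 4 genes, with dark skin replicate 3 highest for KRT14, SFN and PERP.

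Whether the epidermal genes followed TP63 was read from Pearson's r on FPKM over the 6 libraries and from Spearman's rho. Exact p-values came from permutation of the libraries, which have 720 orders. The 10 pairs among summed TP63 and the 4 genes were examined, and p-values were adjusted over all 23090 transcripts correlated with the first gene of a pair. No correlation of any transcript with summed TP63 had an adjusted p under 0.05 (smallest 0.314), while 2406 had an unadjusted p under 0.05. The smallest exact permutation p that 720 orders can give is 0.00139. A transcript could therefore not pass the adjustment over 23090 transcripts on its own, whatever its r, and nothing is read from this outcome.

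KRT14, SFN and PERP had a negative r with TP63, with no p near the threshold. For KRT14 r was -0.33 (exact permutation p = 0.521, adjusted p = 0.836) and rho was -0.54 (exact permutation p = 0.297, adjusted p = 0.699). For SFN r was -0.11 (exact permutation p = 0.851, adjusted p = 0.958) and rho was -0.31 (exact permutation p = 0.564, adjusted p = 0.842). For PERP r was -0.03 (exact permutation p = 0.947, adjusted p = 0.989) and rho was -0.31 (exact permutation p = 0.564, adjusted p = 0.842). An r at least as high as that of KRT14, SFN or PERP was found for 68.6%, 55.5% and 50.8% of all transcripts tested, respectively.

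The sign for SFN and PERP depended on single libraries. For SFN, leaving out dark skin replicate 1 gave r = 0.03, leaving out dark skin replicate 2 gave 0.04, and leaving out white skin replicate 4 gave 0.056. For PERP the values were 0.07 without dark skin replicate 1, 0.26 without dark skin replicate 2 and 0.11 without white skin replicate 5. When the 2 libraries farthest from the TP63 median were left out, dark skin replicate 2 and white skin replicate 4, r was -0.26 for KRT14, 0.27 for SFN and 0.14 for PERP. With the mean of each breed removed, r was -0.30 for KRT14, -0.63 for SFN and -0.41 for PERP. Against XM_005675130.1 alone, the most abundant TP63 transcript, r was -0.50 for KRT14, -0.41 for SFN, -0.31 for PERP and 0.82 for DSG3. Against XM_005675126.1 alone, r was -0.02 for KRT14, so the negative r of KRT14 was not shared by both main TP63 transcripts. A breed of 3 libraries is too small for an r of its own.

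DSG3 was the gene of the 4 with a positive r, at 0.67 (exact permutation p = 0.115, adjusted p = 0.556), with rho = 0.60 (exact permutation p = 0.242, adjusted p = 0.666). An r as high was found for 12.2% of all transcripts tested. It was 0.77 with the mean of each breed removed, but 0.21 without white skin replicate 4 and 0.15 without the 2 farthest libraries. The relation therefore rested on white skin replicate 4, in which both DSG3 and TP63 had their lowest values.

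**Figure D3:**
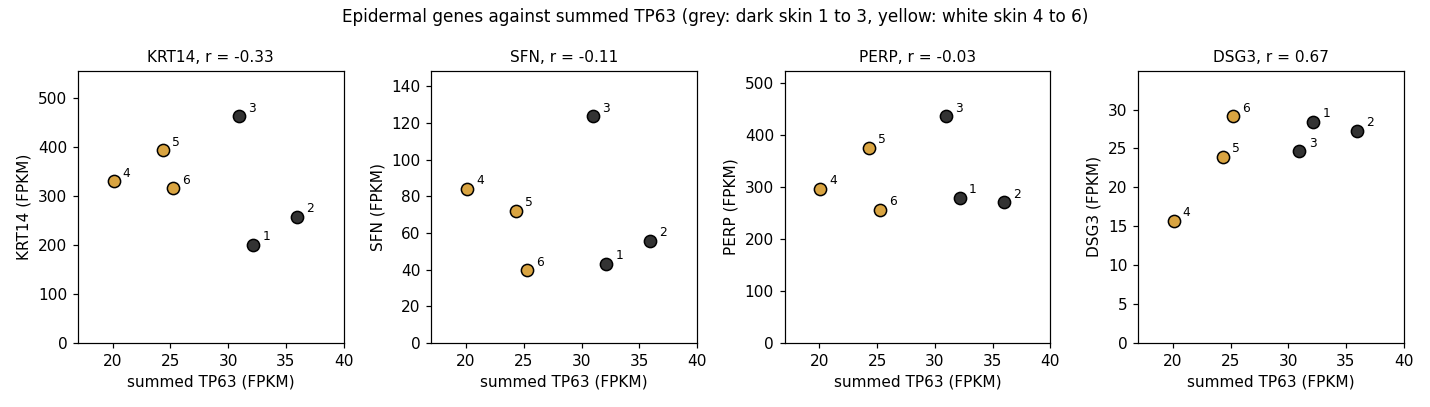
FPKM of KRT14, SFN, PERP and DSG3 (vertical axes) against summed TP63 (horizontal axes, FPKM, starting at 17) in the 6 libraries, numbered by replicate. DSG3 is lowest where TP63 is lowest (r = 0.67), while KRT14, SFN and PERP are highest in dark skin replicate 3, at an intermediate TP63 of 31.0 FPKM.

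The same separation can be read as FPKM per FPKM of summed TP63. For KRT14 this ratio was 6.21, 7.15 and 14.9 in dark skin (replicates 1, 2 and 3), against 16.4, 16.1 and 12.5 in white skin (replicates 4, 5 and 6). Dark skin replicates 1 and 2 thus had the least KRT14 for their TP63. The ratio spanned a factor of 2.64 over the libraries for KRT14, 3.12 for SFN and 2.05 for PERP, but 1.52 for DSG3, from 0.759 to 1.15. The breeds overlapped in all 4 ratios.

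KRT14, SFN and PERP were more alike over the libraries to each other than to TP63, by r alone, since the difference between correlations was not tested. KRT14 and SFN had r = 0.83 (exact permutation p = 0.0389, adjusted p = 0.556) and rho = 0.77 (exact permutation p = 0.103, adjusted p = 0.570). KRT14 and PERP had r = 0.86 (exact permutation p = 0.025, adjusted p = 0.522) with the same rho, and SFN and PERP had r = 0.87 (exact permutation p = 0.0292, adjusted p = 0.482) and rho = 0.89 (exact permutation p = 0.0333, adjusted p = 0.635). An r as high was found for 4.66%, 3.25% and 3.69% of all transcripts tested with the first gene of each pair. None passed the adjustment, which no transcript could pass on its own with 720 orders.

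The 3 relations had the same sign with the mean of each breed removed (r = 0.90, 0.93 and 0.87) and without any single library. All were lowest without dark skin replicate 3, where r was 0.61, 0.69 and 0.61. After leaving out the 2 libraries farthest from the first gene's median, r was 0.44 for KRT14 and SFN, 0.84 for KRT14 and PERP, and 0.47 for SFN and PERP. Taken from the median of PERP instead, the 2 farthest libraries were dark skin replicate 3 and white skin replicate 5, without which r was 0.06 for PERP and KRT14 and 0.84 for PERP and SFN. Taken from the median of SFN, r was 0.83 for SFN and KRT14. How far these relations rested on the extreme libraries thus depended on the gene from which the distance was taken.

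DSG3 was not part of this group, with r = -0.34 against KRT14 (exact permutation p = 0.518, adjusted p = 0.888), -0.52 against SFN (exact permutation p = 0.292, adjusted p = 0.810) and -0.23 against PERP (exact permutation p = 0.669, adjusted p = 0.940). The rho of DSG3 was -0.60 with KRT14 (exact permutation p = 0.242, adjusted p = 0.695), -0.83 with SFN (exact permutation p = 0.0583, adjusted p = 0.644) and -0.71 with PERP (exact permutation p = 0.136, adjusted p = 0.671).

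Other genes of the epidermis were taken from lists of basal, adhesion, p63 target and suprabasal genes. In these 4 lists 31 transcripts of 23 genes were tested, the 4 epidermal genes above among them, and 0 had an adjusted p under 0.05 from limma between breeds. At an unadjusted p under 0.05 there was 1, and 2 (6.45%) did not overlap between breeds, against 14.7% of all transcripts tested. These were KRT2, a keratin of the upper epidermis, and GRHL3, a transcription factor of barrier formation, both higher in dark skin. KRT2, also the transcript with the unadjusted p under 0.05, had a mean of 0.820 FPKM and was singled out after its values were seen. KRT14 was the only matched gene among the 22 of the basal list, so that list adds nothing to KRT14 itself.

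Suprabasal genes, which are switched on as keratinocytes leave the basal layer, had high correlations with KRT14 over the libraries and mostly negative ones with TP63. Of 14 tested transcripts of 12 genes, 14 had a positive r with KRT14, against 51.2% of all transcripts tested, and 9 had an r of at least 0.8, against 6.18%. The median r was 0.84 with KRT14 and -0.35 with summed TP63, against 0.02 and -0.01 over all transcripts. No transcript had an adjusted p under 0.05 for its correlation with KRT14 (smallest 0.321), which none could reach on its own. At an unadjusted p under 0.05 there were 1969. The median log2 difference between breeds was -0.34 for this list and -0.01 over all transcripts, but leaving out dark skin replicate 3 gave -1.04, leaving out white skin replicate 6 gave -0.84, and leaving out dark skin replicate 1 gave 0.0040.

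KLK7, a protease that sheds corneocytes, was listed at 8.68, 14.7 and 110 FPKM in dark skin replicates 1, 2 and 3, and at 107, 70.9 and 22.3 FPKM in white skin replicates 4, 5 and 6. CASP14, a caspase of cornification, was listed at 10.4, 14.8 and 61.1 FPKM in dark skin and at 39.9, 38.3 and 13.9 FPKM in white skin. CSTA, a cysteine protease inhibitor of the cornified envelope, was listed at 23.3, 28.5 and 103 FPKM in dark skin and at 63.3, 97.8 and 32.0 FPKM in white skin. All 3 genes were high in dark skin replicate 3 and white skin replicates 4 and 5 and low in the other libraries, within both breeds. KRT14, SFN and PERP had their 3 highest values in the same libraries, although KRT14 in white skin replicate 6 lay close below (315 against 330 FPKM).

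This order was noticed in the values and then counted. The 3 highest libraries were dark skin replicate 3 and white skin replicates 4 and 5 for 11 of the 14 suprabasal transcripts, against 11.2% of all transcripts tested. The transcripts of KLK7, CASP14 and CSTA described above are among the 11. The 14 transcripts come from 12 genes and are not all independent, so the count is a description only. TGM3 and TGM5, transglutaminases that cross-link the envelope, KLK5, KLK8 and the desmosomal cadherin DSC1 also belonged to the 11. DSC1 reached 62.8 FPKM for XM_005697015.1 and 88.0 FPKM for XM_005697016.1 in dark skin replicate 3. KRT2 was the 1 transcript of the 14 with a positive r with TP63 (0.50).

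Matched markers of skeletal muscle, which lies under fetal skin, ranked highest in the same libraries. Dark skin replicate 3 was well below white skin replicate 4 in all of them. Of the 23 muscle genes listed, CKM and CASQ1 were matched, and all 3 of their transcripts had their highest values in dark skin replicate 3 and white skin replicates 4 and 5. CKM (XM_005692636.1), muscle creatine kinase, was listed at 2.71, 3.02 and 20.3 FPKM in dark skin replicates 1, 2 and 3, and at 226, 65.8 and 2.56 FPKM in white skin replicates 4, 5 and 6. The summed FPKM of the list ran from 4.10 to 24.9 in dark skin and from 4.14 to 293 in white skin. White skin replicate 4 held most muscle RNA while dark skin replicate 3 held most KRT14, and the r with KRT14 was 0.18 for this CKM transcript, 0.54 for the other (XM_005692637.1) and 0.14 for CASQ1. Hair follicle genes had the same 3 highest libraries in 2 of 2 transcripts, with sums of at most 7.30 FPKM. The part of these cell types in the epidermal values was not tested.

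**Figure D4:**
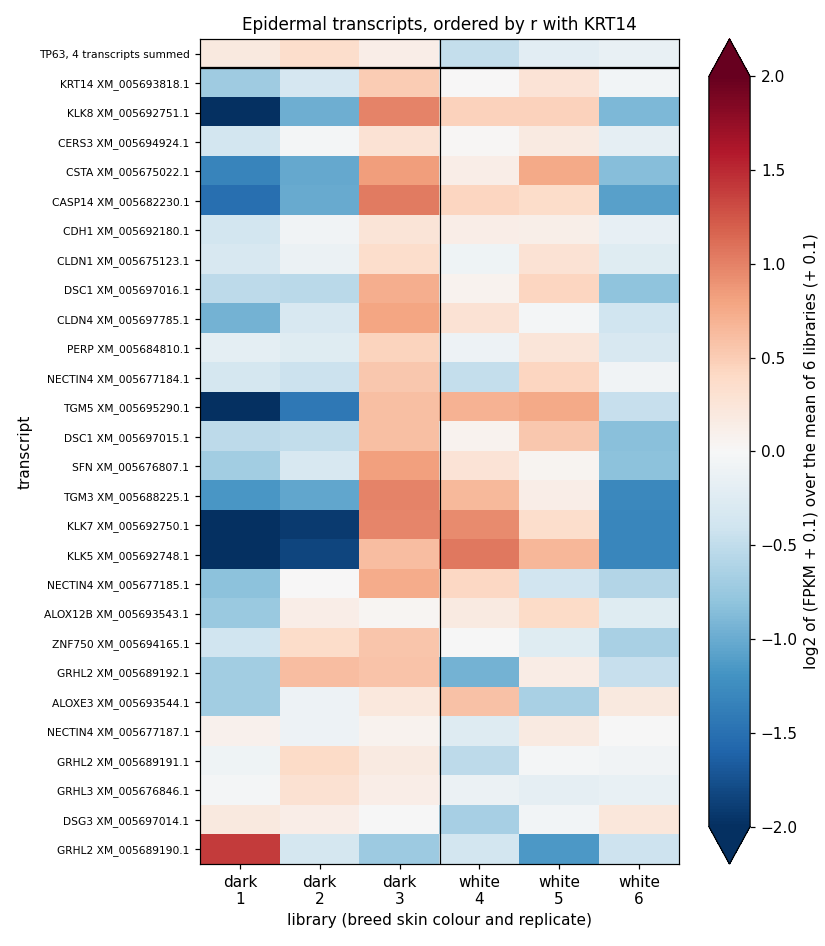
Level of each epidermal transcript with a mean of at least 1 FPKM in each library, as the log2 of (FPKM + 0.1) over its mean (+ 0.1), ordered from the highest to the lowest r with KRT14, with summed TP63 on top and colour that stops at 2 in either direction. KLK7, CASP14 and CSTA are red in dark skin replicate 3 and white skin replicates 4 and 5 and blue in the other libraries, whereas TP63 is red in the 3 dark skin libraries.

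Other adhesion genes, unlike DSG3, had a positive r with KRT14. Besides PERP and DSG3, 8 transcripts of 4 genes were tested, of which 5 belong to NECTIN4 and are not independent. All 8 had a positive r with KRT14 (51.2% of all transcripts tested), with 4 at 0.8 or more (6.18%), a median of 0.83 and a range of 0.27 to 0.86 within NECTIN4. With TP63, 6 of 8 had a negative r, against 50.8% of all transcripts tested. CLDN1, a claudin of epidermal tight junctions, was listed at 106, 122 and 168 FPKM in dark skin and at 125, 162 and 111 FPKM in white skin, with r = 0.90 against KRT14 and -0.10 against TP63. CDH1, the cadherin of adherens junctions, ranged only from 41.4 FPKM in dark skin replicate 1 to 63.8 FPKM in dark skin replicate 3, with r = 0.91 and -0.33. The median log2 difference between breeds was 0.06 for the whole list of 10 tested transcripts, and it ran from -0.18 to 0.20 as single libraries were left out.

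GRHL2, GRHL3 and ZNF750, known p63 targets, had a positive r with TP63. That of SFN and PERP was weakly negative, with a sign that depended on single libraries, and the contrast was not tested. Of the 30 genes listed, SFN, GRHL2, GRHL3 and ZNF750 were matched. The 5 transcripts without SFN all had a positive r with TP63, from 0.35 to 0.87 with a median of 0.63, against 49.2% of all transcripts tested with an r above 0, and 2 of 5 reached 0.8, against 5.99%. Their median r with KRT14 was 0.02, and 0 of 5 had their 3 highest values in dark skin replicate 3 and white skin replicates 4 and 5. Since 3 of the 5 transcripts belong to GRHL2, they are not independent. After removal of the breed means, 3 of the 6 transcripts with SFN included had a positive r with TP63 and 3 a negative one.

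GRHL2 (XM_005689191.1), a grainyhead factor of epithelial identity, was listed at 13.9, 19.4 and 16.8 FPKM in dark skin replicates 1, 2 and 3, and at 10.3, 14.4 and 14.1 FPKM in white skin replicates 4, 5 and 6. It was highest where TP63 was highest and lowest where TP63 was lowest (r = 0.87, or 0.83 after removal of the breed means), and the breeds overlapped. The less abundant GRHL2 transcripts had a lower r, at 0.63 for XM_005689192.1 and 0.35 for XM_005689190.1, or 0.43 and -0.19 after removal of the breed means.

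GRHL3 was listed at 5.98, 7.63 and 6.77 FPKM in dark skin and at 5.69, 5.42 and 5.58 FPKM in white skin. Its breeds did not overlap and its r with TP63 was 0.82, or 0.42 after removal of the breed means. The log2 difference was 0.28 (standard error 0.13, adjusted p = 0.623 from limma). ZNF750, a differentiation factor, ran from 4.89 FPKM in white skin replicate 6 to 11.5 FPKM in dark skin replicate 3, with r = 0.45, or -0.26 after removal of the breed means. The median log2 difference of the list, SFN included, was 0.42.

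**Figure D5:**
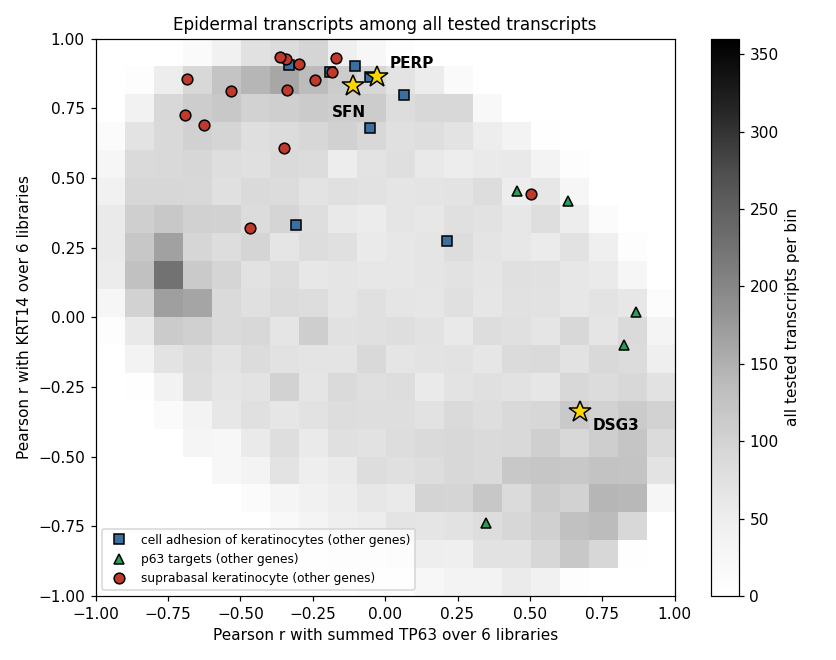
Pearson r with summed TP63 (horizontal axis) and with KRT14 (vertical axis) over 6 libraries for the epidermal transcripts, with the grey bins showing how many of the 23090 transcripts tested fall there. SFN, PERP and 13 of 14 suprabasal transcripts lie at the upper left (negative with TP63, positive with KRT14), the 5 p63 target transcripts lie to the right, and DSG3 lies at the lower right (r = 0.67 and -0.34).

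The transcripts most like summed TP63 came from outside the epidermis lists. Over 5800 transcripts of other genes with a symbol and a mean of at least 1 FPKM, the 10 highest r belonged to RSRC2, IFT52, HIBCH, CCDC94, DIEXF, TOPBP1, CCDC130, APTX, CREBL2 and DSCR3, at 0.976 to 0.988. An r of at least 0.9 was found for 1.91% of all transcripts tested. RSRC2 was listed at 57.5, 61.8 and 52.2 FPKM in dark skin and at 38.0, 45.2 and 44.1 FPKM in white skin. IFT52, an intraflagellar transport protein of cilia, was listed at 17.3, 20.4 and 16.8 FPKM in dark skin and at 9.78, 10.9 and 13.4 FPKM in white skin, the same order as TP63 in all 6 libraries.

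The 5 lowest r belonged to MBNL1, GAA, PECAM1, LPAR4 and C1QTNF6, at -0.983 to -0.972. All 15 transcripts were apart between breeds without overlap, against 14.7% of all transcripts tested. Since they were chosen for likeness to a sum that separates the breeds, nothing is read from this count. After removal of the breed means r was 0.85 to 0.98 for the highest and -0.97 to -0.84 for the lowest. With 6 libraries and this many candidates such values are described and not tested further, and no adjusted p was under 0.05 for the difference between breeds (0.405 to 0.640 and 0.186 to 0.651 from limma). PECAM1, an adhesion molecule of endothelial cells, was listed at 24.3, 17.3 and 24.3 FPKM in dark skin and at 42.3, 31.3 and 30.6 FPKM in white skin.

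Markers of other cells in skin also differed in sign against summed TP63. Of all transcripts tested, 50.8% had a negative and 49.2% a positive r with summed TP63. Of 7 endothelial transcripts, 7 had a negative r (median -0.80), and their summed FPKM was 78.6 to 97.3 in dark skin and 108 to 147 in white skin. Erythroid transcripts, 6 from 4 genes, had a negative r in 5 of 6, with sums of 24.1 to 37.0 FPKM in dark skin and 44.8 to 64.9 FPKM in white skin. Melanocyte transcripts had a positive r in 6 of 6 (median 0.52), with sums of 66.7 to 88.9 FPKM in dark skin and 43.7 to 60.5 FPKM in white skin. The sums of these 3 lists did not overlap between breeds, but their single transcripts were mixed: without overlap, 2 of 7 endothelial transcripts were lower in dark skin, 4 of 6 erythroid transcripts were lower and 1 was higher, and 2 of 6 melanocyte transcripts were higher, against 14.7% of all transcripts tested in either direction. The higher erythroid transcript and 1 of the lower ones belong to the same gene (r = 0.80 and -0.95 with TP63), which holds most of the erythroid sums. After removal of the breed means the r was negative for 7 of 7 endothelial, 2 of 6 erythroid and 4 of 6 melanocyte transcripts. Neither the erythroid nor the melanocyte list thus kept its main sign without the breed difference, although some of their transcripts did.

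A negative r was found for 3 of 3 muscle, 9 of 12 immune, 6 of 11 fibroblast, 4 of 7 Schwann cell and 4 of 5 periderm transcripts. The fibroblast and Schwann cell counts were near the share over all transcripts. The 11 fibroblast transcripts come from 6 genes, and most of the negative ones belong to the same gene, so they are not independent. After removal of the breed means the counts were 3 of 3 muscle, 7 of 12 immune, 6 of 11 fibroblast, 4 of 7 Schwann cell and 3 of 5 periderm transcripts. KRT4, a keratin of wet stratified epithelia, was the exception in the periderm list before that removal. It was listed at 368, 422 and 205 FPKM in dark skin and at 128, 162 and 406 FPKM in white skin, with r = 0.66 against TP63 and -0.66 against KRT14. It was high in dark skin replicates 1 and 2 and white skin replicate 6, the libraries in which KLK7, CASP14 and CSTA were low. In none of these lists did a transcript have an adjusted p under 0.05 between breeds from limma. The part of these cells in the TP63 values was not tested.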

How the data were processed

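RNA from skin of 6 fetuses was depleted of rRNA and made into strand-specific libraries. Per the submitters' processing notes and the methods of the study, reads were aligned to a goat genome with TopHat2 (2.0.9) over Bowtie2 (2.0.6) and assembled with Cufflinks (2.1.1), and the authors deposited FPKM per transcript from Cuffdiff (2.1.1, while the notes also name 2.2.2). From these values, log2(FPKM + 0.1) of transcripts with a mean of at least 0.1 FPKM was compared between breeds with limma (3.58.1 in R 4.3.3, lmFit and eBayes with trend, Benjamini-Hochberg). A value of 0.05 was the threshold on adjusted p. Correlations and exact permutation tests used scipy (1.17.1) and numpy (2.4.6) in Python (3.11.15). Both were tested on simulated data. Symbols came from the RefSeq gene table of assembly ARS1.2, which matched 9497 of 27947 transcripts, so gene lists are incomplete. Its coordinates were not used, and sequences and promoter motifs were not analysed here. The lncRNA table was not used. The members and lists were chosen with earlier results of these data known. Named besides the 8 transcripts were the 10 highest and 5 lowest r with summed TP63 among transcripts of at least 1 FPKM, epidermal-list transcripts of at least 1 FPKM, and the 1 to 3 most abundant of other lists, with KRT2 (under 1 FPKM) as an exception chosen after its values were seen. Alternatives were other pseudocounts, filters, scalings, scales of r and single libraries left out. The labels give 1 sample per library, and p-values measure the spread between these fetuses. A gene among the listed ones is not reported here.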

Additional observations from a re-analysis of the deposited data

How the results depend on the processing

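The count of transcripts with an adjusted p under 0.05 between breeds was 2, and it was 11 without a filter, 1 with a minimum mean of 1 FPKM, 28 without the trend and 1 to 7 with single libraries left out. None of these alternatives called XM_005675126.1 or XM_005675130.1 of TP63, or KRT14, SFN, PERP or DSG3; the other TP63 transcripts were not followed through them. Summed TP63 was higher in dark skin under every alternative (log2 difference 0.40 to 0.57). The share of XM_005675130.1 was 1.29 percentage points higher in dark skin with the fifth transcript added, which was tried after the data were seen. As single libraries were left out, the difference ran from -5.24 to 0.905 percentage points for XM_005675130.1 and from -0.602 to 5.54 for XM_005675126.1. The r with summed TP63 ran from -0.73 to -0.14 for KRT14, from -0.59 to 0.056 for SFN, from -0.38 to 0.26 for PERP and from 0.21 to 0.88 for DSG3. Against XM_005675130.1 alone it was -0.50, -0.41, -0.31 and 0.82. Against XM_005675126.1 alone it was -0.02 for KRT14. Without the 2 libraries farthest from the TP63 median, the r with summed TP63 was 0.27 for SFN and 0.14 for PERP. The log2 difference between breeds ran from -0.60 to 0.0026 for KRT14 (highest without dark skin replicate 1), from -0.34 to 0.42 for SFN and from -0.15 to 0.22 for PERP. Without dark skin replicate 3 and white skin replicate 6 in turn it was -0.34 and -0.22 for SFN and -0.15 and -0.06 for PERP. The causes of these changes were not tested. No paired analysis was possible because the breeds share no replicate numbers. With no read counts, the depth behind each value is unknown.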
